A study of Mus musculus with 15 samples.

Results

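The genes described here are 10 that mark megakaryocytes and platelets: Itga2b, Itgb3, Gp1ba, Gp1bb, Gp5, Gp6, Gp9, Pf4, Vwf and Nfe2. They were taken by name, and all 10 were found among 21887 protein-coding mouse genes of the RefSeq annotation of GRCm38.p6, the assembly behind mm10. For each gene, every peak in the gene body and 50 kb either side was read from 3 ATAC-seq peak lists, 1 library per genotype. ATAC-seq cuts accessible DNA with a transposase, and a peak is a stretch where cuts pile up.

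All libraries came from haematopoietic stem cells (HSC) sorted from adult mice given poly(I:C), which induces the Mx1-Cre recombinase. WT control mice were Mx1-Cre-/-;mTORflox/flox, KO mice Mx1-Cre+/-;mTORflox/flox and KI mice Mx1-Cre+/-;mTORflox/knockin. All 3 genotypes thus carried a floxed Mtor allele, and both mutants carried Cre while WT did not, so that an effect of Cre and one of the Mtor alleles cannot be told apart. The Mx1 promoter that drives this Cre responds to interferon in many tissues and is not confined to blood cells. By their labels, WT and KO are re-analysed libraries whereas KI is not. That difference and KI genotype coincide and likewise cannot be told apart. A further 12 RNA-seq samples of the series were not analysed here.

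Megakaryocytes arise from HSC and shed platelets, and some HSC already carry platelet-lineage transcripts such as Vwf and surface CD41, the product of Itga2b. Circulating platelets first attach to von Willebrand factor through the glycoprotein Ib-IX-V complex, then bind collagen through glycoprotein VI, and finally aggregate through integrin alpha-IIb beta-3. GATA, ETS and RUNX family factors and NF-E2 are known regulators of megakaryocyte maturation.

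The WT list held 17316 peaks, the KO list 19189 and the KI list 28391, at an unknown read depth. Each peak has the score that the authors deposited, none of them below 50, so a weaker signal is not listed. The percentile given with a score is the percentage of peaks in the same list that scored lower, and neither value is compared between lists. At the start of Mtor itself, WT had a peak (score 341.21, percentile 96.7), KI had a peak (score 210.27, percentile 82.1) and KO had none. Since each genotype is 1 library, there is no replicate error and no test, and every difference below is a difference between 3 libraries. As a check of the sort, 20 marker genes of HSC and early progenitors were examined, Flt3 and Cd48 among them. Of the 20, 11 had a peak at the start in WT, 7 in KO and 11 in KI. Kit, Mecom, Hlf, Mllt3 and Flt3 had one in every list, whereas Slamf1, Cd48 and Ly6a, which encodes Sca-1, had none in any.

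Promoter sequences for 7 of the 10 genes were matched in the RefSeq promoter table for GRCm38.p6. The 5 shown are those of the 4 genes with a peak over the promoter in at least 1 list, and that of Gp5, whose only body peak lay elsewhere in the gene. Each is the 250 bases before the annotated start, 5′ to 3′ on the gene's own strand. Capitals mark matches to the letters GATAA (GATA factors), GGAAG (ETS factors), TGTGGT (RUNX) and TGAGTCA (NF-E2 and AP-1) on either strand. No printed match overlaps one of another motif.
Gp1ba, chr11:70638872-70639121, plus strand: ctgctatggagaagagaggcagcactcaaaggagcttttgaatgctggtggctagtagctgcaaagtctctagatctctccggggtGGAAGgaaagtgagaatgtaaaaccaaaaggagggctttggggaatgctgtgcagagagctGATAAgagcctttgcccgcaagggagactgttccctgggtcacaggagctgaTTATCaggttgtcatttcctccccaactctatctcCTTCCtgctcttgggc
Gp9, chr6:87777820-87778069, plus strand: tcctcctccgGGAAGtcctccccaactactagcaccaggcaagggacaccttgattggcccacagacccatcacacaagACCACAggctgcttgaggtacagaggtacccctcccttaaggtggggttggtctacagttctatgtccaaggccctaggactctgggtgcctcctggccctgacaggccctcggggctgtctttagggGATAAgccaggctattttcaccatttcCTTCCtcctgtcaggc
Gp5, chr16:30310782-30311031, minus strand: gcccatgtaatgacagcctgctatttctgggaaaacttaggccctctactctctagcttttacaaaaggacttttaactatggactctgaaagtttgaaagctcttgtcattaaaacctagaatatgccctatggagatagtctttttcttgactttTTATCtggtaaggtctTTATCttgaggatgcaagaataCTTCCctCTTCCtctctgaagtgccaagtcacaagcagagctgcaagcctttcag
Itga2b, chr11:102469884-102470133, minus strand: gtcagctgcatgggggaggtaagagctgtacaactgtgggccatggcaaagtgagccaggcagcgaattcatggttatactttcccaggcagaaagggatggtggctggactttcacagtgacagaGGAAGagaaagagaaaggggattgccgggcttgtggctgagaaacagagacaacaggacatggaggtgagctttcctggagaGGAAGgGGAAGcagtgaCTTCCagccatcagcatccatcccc
Pf4, chr5:90772185-90772434, plus strand: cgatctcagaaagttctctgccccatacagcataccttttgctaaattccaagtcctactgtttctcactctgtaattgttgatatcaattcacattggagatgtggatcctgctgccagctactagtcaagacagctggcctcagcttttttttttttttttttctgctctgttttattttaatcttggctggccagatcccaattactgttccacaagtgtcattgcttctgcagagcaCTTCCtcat

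These promoters were poor in CpG. The ratio of observed to expected CpG was 0.0 for Gp5, 0.07 for Gp6, 0.1 for Gp9, 0.1 for Pf4, 0.12 for Itga2b, 0.13 for Gp1ba and 0.38 for Gp1bb. Its median over 21263 promoters of protein-coding genes was 0.53, above all 7. The G+C content ran from 40.8% (Gp5) to 57.6% (Gp1bb and Gp9), beside a median of 55.6%. Among the 4942 promoters with a CpG ratio below 0.2, which include all of the 7 but Gp1bb, 5.38% had a peak within 1 kb of the start in WT, 5.52% in KO and 8.44% in KI. Among the 5333 promoters with a ratio of 0.8 or more, the shares were 80.3%, 79.9% and 88.4%. Of the 6 members in the lowest class, Pf4 had such a peak in WT, Itga2b, Gp9 and Pf4 in KO, and Itga2b, Gp1ba and Pf4 in KI.

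**Figure D1:**
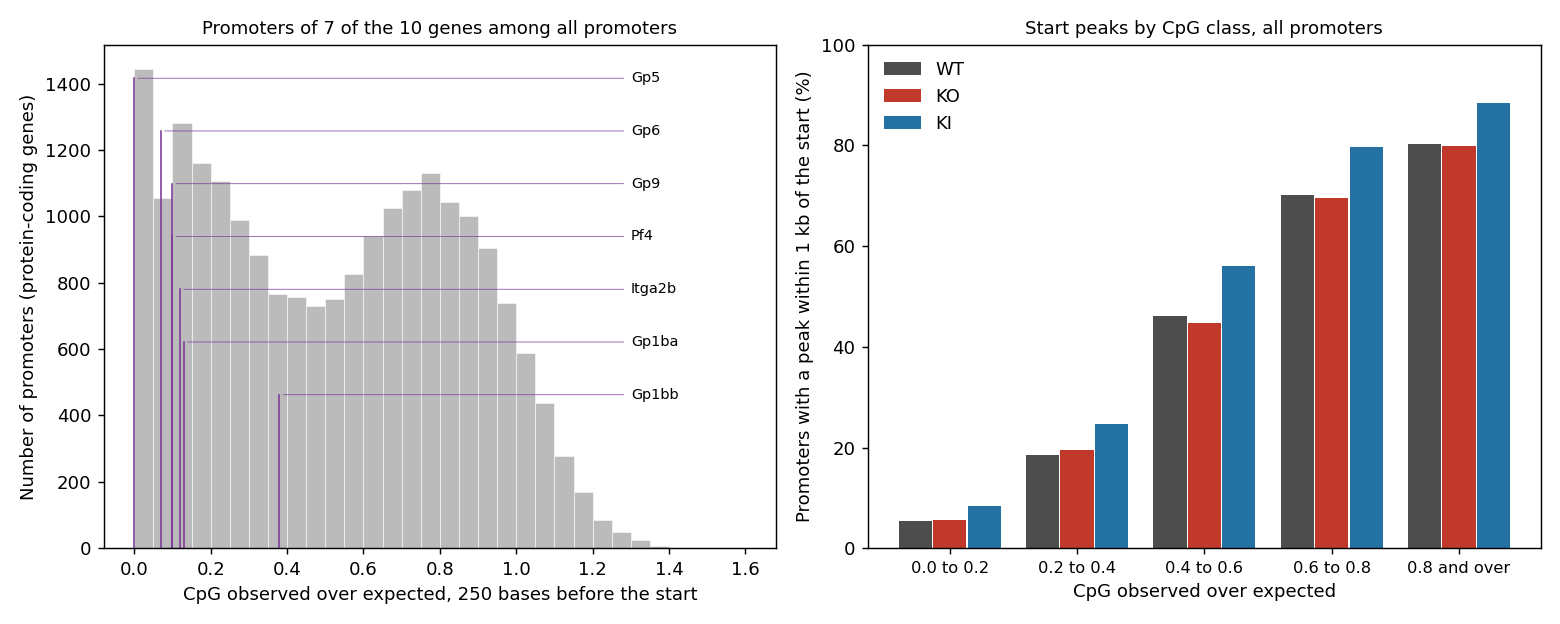
Left, number of protein-coding gene promoters by the ratio of observed to expected CpG in the 250 bases before the start (bars), with 7 of the 10 genes marked by lines. Right, percentage of promoters with a peak within 1 kb of the start by CpG class in the 3 lists. The 7 genes lie at ratios of 0.0 to 0.38, in the classes where 5.38% and 18.6% of promoters had a WT start peak.

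Of the 7 promoters, 4 held GATAA, against 22.6% of 32851 RefSeq promoter windows of the same length. The letters GGAAG were in 6, against 64.1%, TGTGGT in 1, against 14%, and TGAGTCA in none, against 4.46%. Counted from the start to the farthest base of a match, Itga2b held GGAAG at 124, 42, 36 and 25 bp. Gp1ba held GATAA at 103 and 51 bp and GGAAG at 164 and 16 bp before its start. Gp5 held GATAA at 93 and 77 bp, although no list had a peak over that window. A match describes letters in the window and nothing about binding.

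At the start of the genes, the lists differed for 3 of the 10. A start peak here is a peak within 1 kb of the start given in the promoter table, or of either annotated end for Itgb3, Vwf and Nfe2. WT had one at Pf4 and Nfe2, KO at Pf4, Nfe2, Itga2b and Gp9, and KI at Pf4, Nfe2, Itga2b and Gp1ba. Members with a start peak thus numbered 2 in WT, 4 in KO and 4 in KI, while 45.5%, 45.3% and 52.7% of all genes had one. The 2 genes with a start peak in all 3 lists stand beside 40.5% of all genes, and the 5 with none in any list (Itgb3, Gp1bb, Gp5, Gp6 and Vwf) beside 45.0%.

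Within 1 kb of these starts, the differences were peaks in a mutant and none in WT, but this direction depends on how a start is defined. In KO this held for 2 members (background 4.56% of genes) and in KI for 2 (8.56%). No member had a WT start peak that was missing in KO (4.7%) or in KI (1.33%). Within 2500 bp of the start, members with a start peak numbered 5 in WT, 4 in KO and 6 in KI, and Gp5 had one in WT and in neither mutant. With both annotated ends used for every gene, an alternative chosen after seeing the data, they numbered 4, 3 and 5. Gp5 then again had one in WT alone, and Gp9 in WT and KI without KO. By pattern at 1 kb, Itga2b had a start peak in both mutants but not in WT (3.56% of genes), Gp1ba in KI alone (5.0%) and Gp9 in KO alone (1.0%). With 1 gene in each pattern, these counts say nothing particular about the 10 genes. Marker genes of other cell types also differed at their starts. Of 14 erythroid markers, 2 had a start peak in WT, 6 in KO and 6 in KI, with Klf1, Alas2 and Slc4a1 at none in every list. Those with one in a mutant and none in WT made up 28.6% in KO and 28.6% in KI, with Epor, Car1 and Aqp1 among them in both, beside 4.56% and 8.56% of all genes. Of 9 endothelial and stromal markers, 0 had one in WT, 3 in KO and 4 in KI, with Cdh5, Emcn, Lepr and Cxcl12 at none. The markers present were Sox17, Col1a1 and Col1a2 in KO (33.3%) and Sox17, Col1a1, Kdr and Pdgfrb in KI (44.4%), beside the same 4.56% and 8.56%. Granulocyte and monocyte markers (14 genes) counted 2, 1 and 6 in the same order, with Elane and Ctsg at none. In KI, 28.6% of them had a start peak that WT lacked, beside 8.56% of all genes, and in KO none did. T and NK lymphoid markers (10 genes) counted 0, 2 and 3, so 2 in KO and 3 in KI had one that WT lacked. B lymphoid markers (10 genes) counted 1, 0 and 1, and neither mutant had one that WT lacked. Mast cell and basophil markers (8 genes) counted 0, 0 and 1, the 1 in KI being absent from WT (12.5%, beside 8.56%). The part of other cell types in the member differences was not tested.

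**Figure D2:**
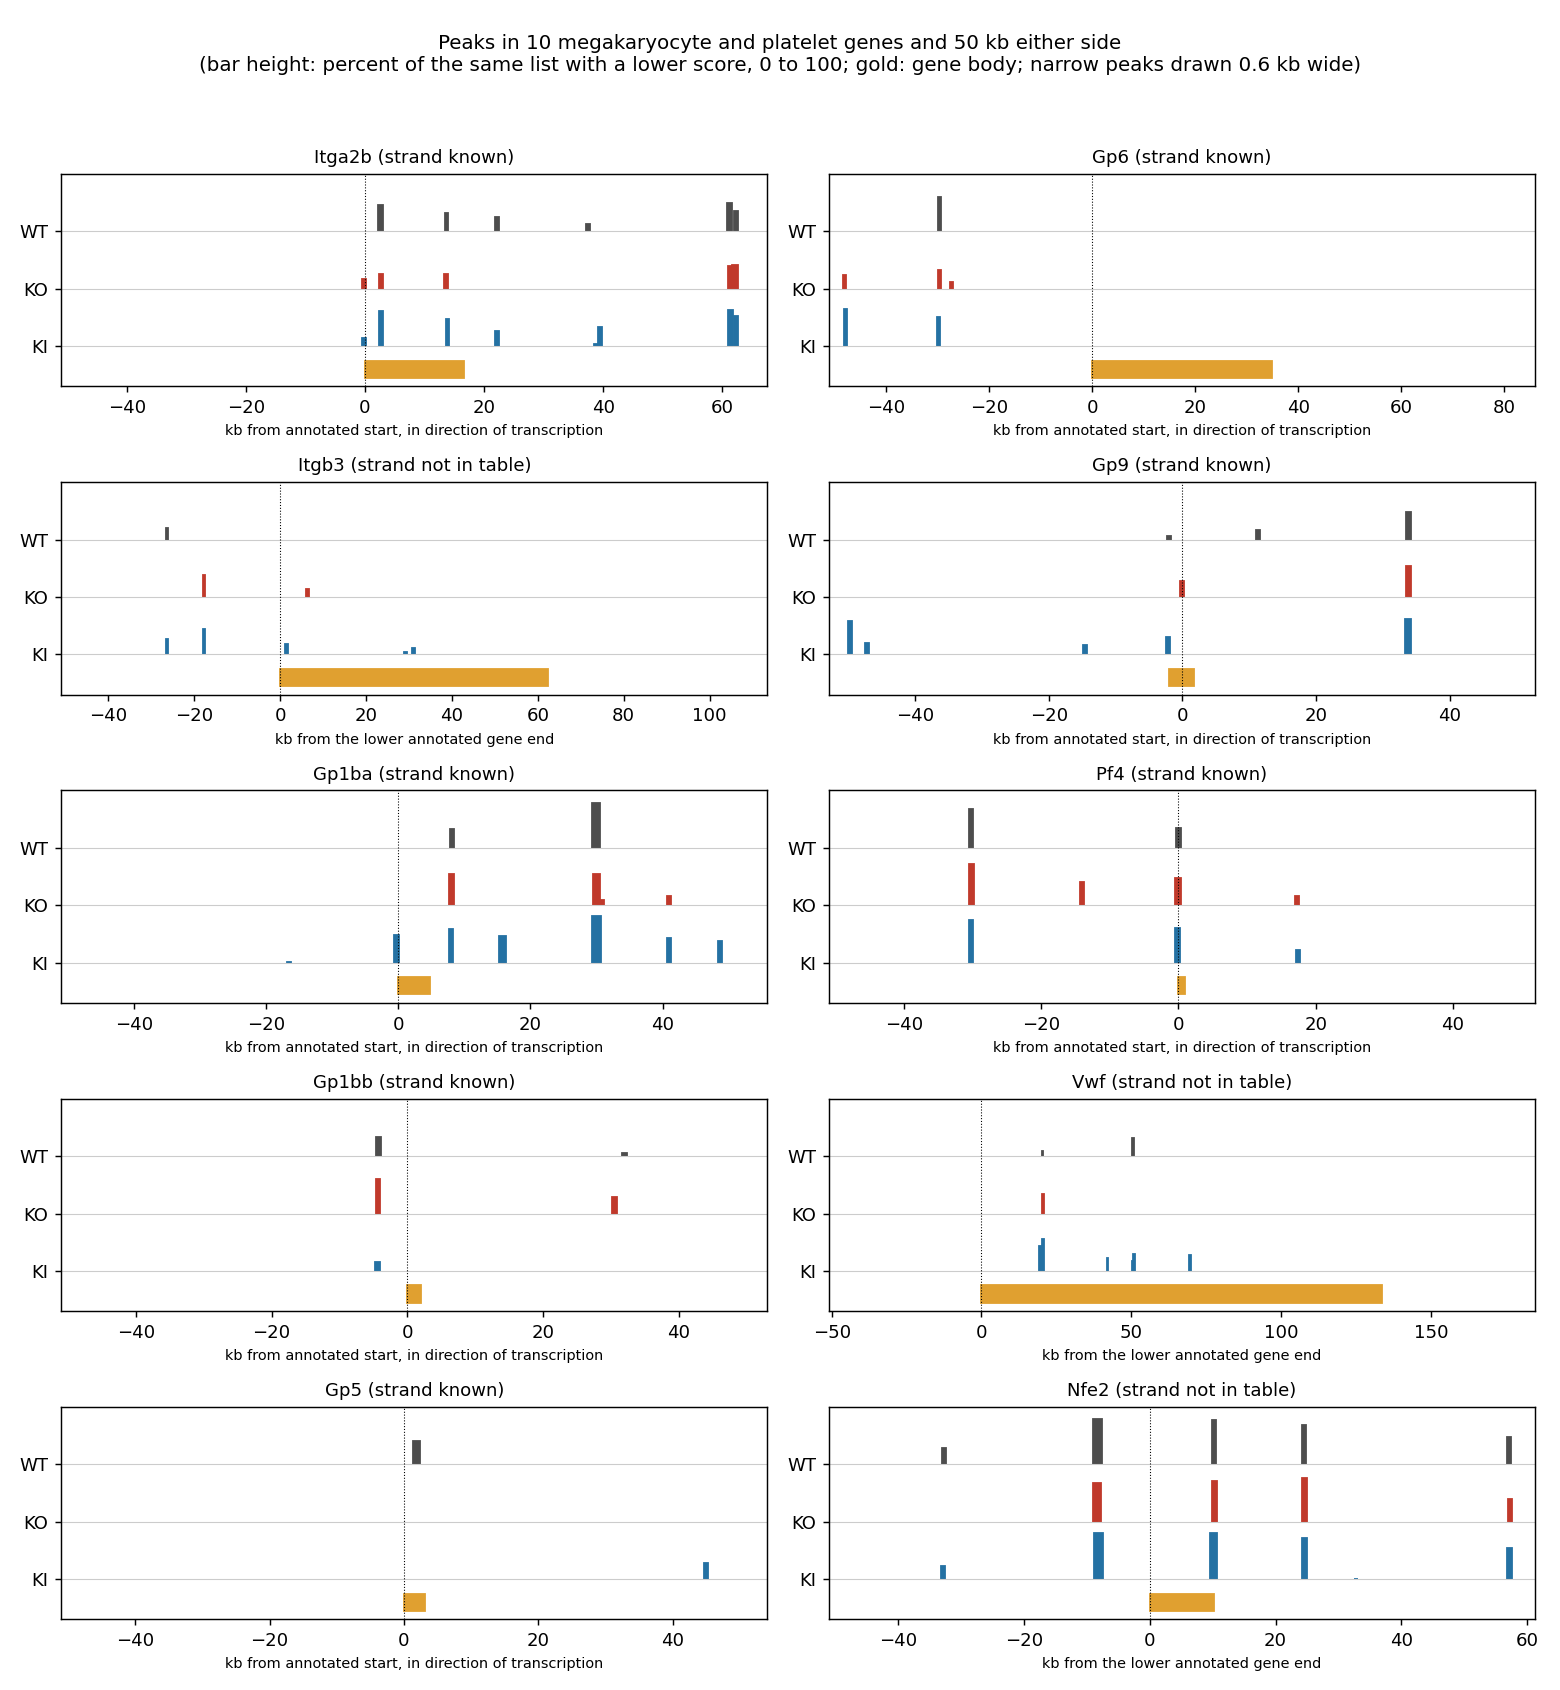
Position of every peak near each gene, in kb along the x axis, with the WT, KO and KI lists as 3 tracks; bar height is the percentage of the same list with a lower score, and the gold bar is the gene body. Pf4 and Nfe2 carry a bar at a gene start or end in all 3 tracks, Itga2b in KO and KI, Gp1ba in KI and Gp9 at its dotted start line in KO.

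Gp1ba encodes the alpha chain of the glycoprotein Ib complex, which binds von Willebrand factor, and lies on chromosome 11 from 70639102 to 70643986 on the plus strand. KI alone had a peak over its start, chr11:70638522-70639208, of 687 bp (score 107.48, percentile 57.2). It covered all 250 bases of the promoter printed above, and neither WT nor KO had any peak in the gene body. The next peaks lay downstream, at the starts of neighbouring genes. At Slc25a11 and Rnf167, which share a start region about 3 kb past Gp1ba, WT had 574 bp (score 79.39, percentile 38.8), KO 770 bp (108.88, 63.6) and KI 630 bp (145.74, 70.0). At the Spag7 start WT had 1287 bp (252.22, 91.2), KO 1124 bp (108.4, 63.3) and KI 1278 bp (375.18, 95.2). KO had a further peak there of 505 bp (55.76, 10.9), which overlapped the KI peak and no WT peak.

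The remaining peaks near Gp1ba were in the mutant lists. Inside Camta2, 36003 bp past the gene, KO had 340 bp (60.57, 19.5) and KI 431 bp (93.37, 50) with no WT peak. Peaks of KI alone lay 16407 bp upstream (283 bp, score 50.9, percentile 1.56), at the Pfn1 start (1140 bp, 102.28, 54.8) and at the Camta2 start (539 bp, 84.87, 44.5). Pfn1 encodes the actin-binding protein profilin. In all, the window held 2 WT, 4 KO and 7 KI peaks.

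Gp1bb encodes the beta chain of the same complex, on the minus strand of chromosome 16 from 18620319 to 18622403, and its body overlaps that of Septin5. No list had a peak in the gene body. The nearest peak was inside Septin5 in all 3 lists, over chr16:18626322-18627127, between 3919 and 4036 bp upstream of the Gp1bb start. WT had 697 bp there (score 79.11, percentile 38.4), KO 571 bp (127.74, 71.5) and KI 689 bp (59.99, 17.6). The only other peaks lay near Tbx1, a T-box factor gene. There a WT peak of 357 bp (53.89, 6.59) and a KO peak of 543 bp (70.34, 33.7) lay 1028 bp apart without overlap, and KI had none.

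Gp9 encodes the glycoprotein IX subunit, which the complex needs to reach the surface. Its annotation on chromosome 6 runs from 87776131 to 87779786 on the plus strand, while the start in the promoter table is 87778070, inside that span. The lists placed their peaks at different ends of this interval. WT had 302 bp (score 54.68, percentile 7.98) and KI 432 bp (75.45, 36.6) over the outer end, within chr6:87775725-87776199. KO had instead 386 bp (68.72, 31.8) at chr6:87777868-87778253, over the table's start and 202 of the 250 promoter bases printed above. The KO peak lay 1668 bp from the WT peak and 1711 bp from the KI peak. Which list has a start peak therefore depends on which annotated position is taken: KO by the table, WT and KI by the outer end.

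Around Gp9 the strongest shared peak lay at the Rab43 start, 31763 bp past the gene in WT. WT had 751 bp there (107.37, 56.9), KO 798 bp (107.64, 62.9) and KI 907 bp (154.65, 72.1). Inside Rab43, WT alone had 496 bp (62.48, 19.9). On the upstream side KI alone had 3 peaks: 337 bp at a distance of 47627 bp from the gene (141.06, 68.8), 457 bp at the Efcc1 start (63.39, 22.9) and 247 bp at 12473 bp (61.08, 19.3).

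Gp5 encodes glycoprotein V, the most loosely attached subunit, and lies on the minus strand of chromosome 16 from 30307685 to 30310781. WT alone had a peak in it, chr16:30308450-30309367, of 918 bp (score 92.06, percentile 48.5). That peak was 1414 bp from the start and 765 bp from the far end of the gene, so it was not at the promoter. KO had no peak anywhere in the window, the only such case among the 30 combinations of gene and list. Over all genes, 76.4% had at least 1 KO peak in the same kind of window, so an empty one is common. KI had 1, of 297 bp (71.74, 33.0) inside Cpn2, 41739 bp past the gene.

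Vwf encodes von Willebrand factor, the ligand of this complex, made by megakaryocytes and endothelial cells. It is the longest of the 10 genes, 133732 bp on chromosome 6 from 125552948 to 125686679, and no list had a peak within 1 kb of either end. All its peaks lay inside the gene: 2 in WT, 1 in KO and 6 in KI. The region shared by the 3 lists, chr6:125572310-125573784, lay about 20 kb inside the lower end. WT had 237 bp there (score 55.6, percentile 9.49) and KO 521 bp (76.4, 40.3). KI had a pair of peaks in it, of 911 bp (95.47, 51.3) and 553 bp (130.55, 65.8), and the first overlapped the KO peak but ended 19 bp short of the WT peak.

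Deeper in Vwf, WT had 363 bp (76.39, 36.0) and KI 444 bp (61.76, 20.4) in chr6:125603145-125603661, where KO had no peak. KI alone had 339 bp next to it (72.98, 34.3), 72 bp from the WT peak, so that its absence from WT turns on a small gap. The other KI peaks of Vwf, 274 bp wide (65.61, 26.2) and 432 bp wide (70.51, 31.8), lay 8121 and 18795 bp from the nearest WT peak. No other gene's body overlapped any of these peaks.

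Itga2b encodes integrin alpha-IIb, the CD41 antigen, on the minus strand of chromosome 11 from 102453297 to 102469883. KO and KI had a peak over its start where WT had none. The KO peak was 532 bp (score 60.39, percentile 19.2) and the KI peak 594 bp (59.19, 16.2), and together they spanned chr11:102469766-102470359. Both covered all 250 bases of the promoter printed above. Both were low in their own lists, and the nearest WT peak lay 2185 bp from the KO peak and 2158 bp from the KI peak. Neither peak scored 100, and the KI one dropped out when each list was limited to as many top peaks as the shortest holds. With a start distance of 2500 bp, WT also counted as having a start peak, through the peak inside the gene. In the lowest 25% of the lists by score, 65.0% of KO and 83.3% of KI peaks had no WT counterpart.

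Inside Itga2b, the 3 lists shared 2 regions. Over chr11:102466836-102467607, between 2276 and 2406 bp after the start, WT had 772 bp (102.42, 54.6), KO 529 bp (67.42, 30.1) and KI 733 bp (156.91, 72.6). Over chr11:102455756-102456422, near the far end, WT had 483 bp (77.76, 37.3), KO 301 bp (66.87, 29.4) and KI 523 bp (105.53, 56.3). The gene body was thus listed as accessible in WT too, with 2 WT, 3 KO and 3 KI peaks. WT and both mutants differed at the start only, among the regions in the gene body.

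Downstream of Itga2b the peaks lay at other genes. At Slc25a39 each list had a pair of peaks that merged into chr11:102407176-102409090. These were 735 bp (81.92, 40.9) and 801 bp (110.7, 58.5) in WT, 901 bp (86.15, 49.1) and 583 bp (83.63, 47.1) in KO, and 769 bp (120.35, 62.3) and 824 bp (168.04, 75.1) in KI. At one end of Fam171a2, WT had 323 bp (69.98, 29.2) and KI 461 bp (70.81, 32.1). Within Grn, the progranulin gene, WT had 593 bp (59.46, 15.5) and KI a pair at its start of 411 bp (79.28, 40.2) and 370 bp (53.14, 5.48), none of which overlapped across lists.

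Itgb3 encodes the beta-3 partner of Itga2b, on chromosome 11 from 104608000 to 104670476. WT had no peak in its body, KO 1 and KI 3. The KO peak was 413 bp (score 58.36, percentile 15.4), 6177 bp inside the lower end. KI had 472 bp (61.85, 20.5) at 1252 bp inside that end, 217 bp (52.54, 4.56) and 337 bp (57.95, 14.1). None of these body peaks overlapped between KO and KI, and all 4 were in the lowest 25% of their list. Outside the body, KO had 452 bp (81.62, 45.4) and KI 360 bp (97.34, 52.3) in chr11:104590061-104590512, 17488 bp below the gene in KO, with no WT peak. Inside Myl4, WT had 345 bp (65.64, 24.0) and KI 395 bp (69.74, 31.0).

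Gp6 encodes glycoprotein VI, the signalling collagen receptor, on the minus strand of chromosome 7 from 4362853 to 4397851. No list had a peak in its body or at its start, and all 6 peaks near it lay upstream, at or in Rdh13. The shared region chr7:4427127-4427694 held a WT peak of 466 bp (score 141.98, percentile 70.9), a KO peak of 568 bp (74.69, 38.5) and a KI peak of 340 bp (112.97, 59.6). In chr7:4445239-4446026, KO had 575 bp (66.09, 28.3) and KI 524 bp (173.81, 76.3) with no WT peak. That KI peak was the 1 peak near the members that stood in the top 25% of the KI list and was absent from WT, as were 2.0% of all KI peaks in that top 25%. KO alone had 507 bp (57.34, 13.5) at an end of Rdh13.

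Pf4 encodes platelet factor 4, a chemokine of the alpha granules, on chromosome 5 from 90772435 to 90773383 in a cluster with Ppbp and Cxcl5. Its start was covered in all 3 lists, over chr5:90771894-90772810. WT had 673 bp (score 80.34, percentile 39.6), KO 898 bp (96.69, 56.6) and KI 814 bp (149.76, 71.0), and each covered the whole promoter printed above. A further region in all 3 lists, chr5:90741935-90742641, lay about 30 kb upstream and within 1 kb of no protein-coding start. WT had 616 bp there (177.22, 80.2), KO 689 bp (181.29, 85.1) and KI 526 bp (250.29, 86.8), which were the highest scores near Pf4 in each list.

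Beyond these, only the mutant lists had peaks near Pf4. Downstream by 16026 bp, KO had 588 bp (59.99, 18.5) and KI 413 bp (65.02, 25.4) that overlapped each other. KO alone had 212 bp near the Cxcl5 end (84.15, 47.5). No list had a peak at Ppbp, the gene of a second platelet chemokine inside this window.

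Nfe2 encodes the p45 subunit of NF-E2, the factor that platelet release depends on, on chromosome 15 from 103248212 to 103258403. Its higher annotated end was covered in all 3 lists, over chr15:103257848-103258901. WT had 711 bp (score 256.48, percentile 91.6), KO 677 bp (174.58, 83.9) and KI 1054 bp (359.81, 94.7). This was the only member peak at a start or end that stood in the top 25% of all 3 lists. The strand of Nfe2 is not in the promoter table, so this end is not named as start here.

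Several peaks near Nfe2 lay at the starts of other genes. The shared start region of Cbx5 and Hnrnpa1, 7567 bp below it in WT, held a WT peak of 1437 bp (271.38, 92.8), a KO peak of 1268 bp (156.12, 79.7) and a KI peak of 1551 bp (352.17, 94.4). At the Copz1 start the WT peak was 635 bp (183.29, 81.4), the KO peak 822 bp (212.06, 89.6) and the KI peak 860 bp (225.18, 84.0). At chr15:103305029-103305780, within 1 kb of no coding start, WT had 621 bp (105.82, 56.2), KO 526 bp (84.16, 47.5) and KI 736 bp (125.05, 63.9). A region at a second Cbx5 start held 390 bp in WT (73.15, 32.8) and 340 bp in KI (65.47, 26.1) and none in KO, and inside Copz1 KI alone had 239 bp (50.83, 1.44).

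**Figure D3:**
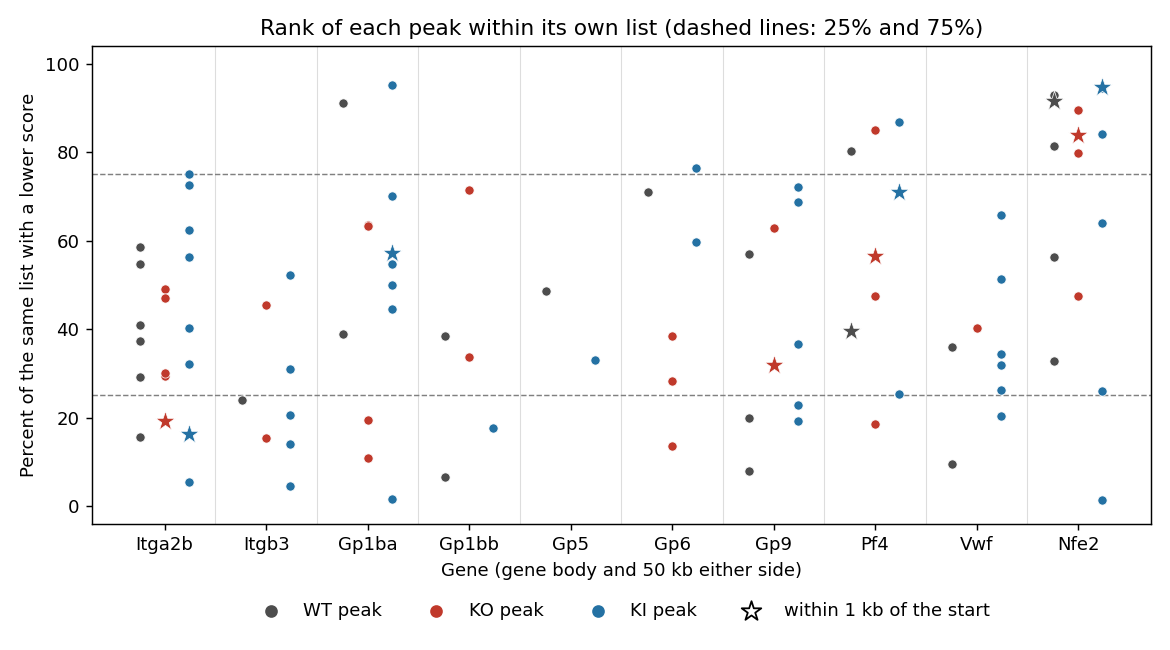
Percentage of the same list with a lower score (y axis) for each peak near each of the 10 genes (x axis), coloured by list; stars are peaks within 1 kb of a start and the dashed lines mark 25% and 75%. Stars at Nfe2 lie at 83.9 to 94.7, those at Itga2b at 16.2 to 19.2.

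Over the 10 windows, which cover 1272659 bp, there were 25 WT, 27 KO and 44 KI peaks. As a share of its list this was 0.144% for WT (Wilson 95% interval 0.0978 to 0.213), 0.141% for KO (0.0967 to 0.205) and 0.155% for KI (0.115 to 0.208). The intervals cover counting error over peaks only. KI had 1.76 times as many peaks near the members as WT, and its whole list was 1.64 times as long. Per gene, the median was 2.0 in WT, 2.5 in KO and 5.0 in KI, beside 2.0, 2.0 and 3.0 over all genes. In the bodies themselves there were 8 WT, 8 KO and 16 KI peaks. The long gene Vwf held 2, 1 and 6 of these, and Itgb3 held 0, 1 and 3. The same count over all gene bodies was not computed.

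Some of these peaks lay at the starts of neighbouring genes, which does not show which gene they act on. The share of all peaks at a coding start was not computed for comparison. Within 1 kb of another protein-coding gene's start lay 10 of the 25 WT peaks, 11 of the 27 KO peaks and 14 of the 44 KI peaks. In score the peaks near the members were spread through their lists, with 5 WT, 4 KO and 7 KI peaks in the top 25% and 6, 6 and 11 in the bottom 25%. The median widths were 616 bp (WT), 568 bp (KO) and 466.5 bp (KI), against 590, 514 and 477 bp over the lists.

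In each of the 4 comparisons below, the share of peaks without a counterpart was higher near the members than over the whole list. Of the WT peaks near the members, 9 of 25 had no KO peak overlapping them by at least 1 bp (36.0%, Wilson interval 20.2 to 55.5), beside 25.5% of the WT list. For KI it was 4 of 25 (16.0%, 6.4 to 34.7), beside 13.1%. In the other direction, WT lacked 11 of 27 KO peaks (40.7%, 24.5 to 59.3) and 23 of 44 KI peaks (52.3%, 37.9 to 66.2), beside 32.4% and 46.5%. Each of these 4 intervals contains the value of the whole list. With 25 to 44 peaks the intervals are wide, so they show neither a difference from the whole list nor likeness to it. The 9 WT peaks without a KO counterpart reached percentile 48.5 in the WT list. They were 5 of 6 peaks in the lowest 25% by score (57.4% over the list) and 4 of 9 in the next 25% (34.4%). The whole-list shares in each 25% of score, applied to the peaks near the members, give 7.06, 3.57, 10.4 and 21.7 peaks. These stand beside the counts of 9, 4, 11 and 23 above.

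Merging the lists where peaks overlap or touch gave 51 regions near the members. Of these, 15 held all 3 lists (29.4%, beside 39.3% of the regions near any protein-coding gene) and 17 KI alone (33.3%, beside 28.5%). KO and KI without WT held 5 (9.8%, beside 10.4%), as did WT and KI without KO (9.8%, beside 7.78%) and KO alone (9.8%, beside 7.48%). WT alone held 4 (7.84%, beside 5.28%), and WT and KO without KI none (beside 1.24%). The 5 regions of KO and KI without WT were spread over 5 genes: the Itga2b start and regions near Itgb3, Gp1ba, Gp6 and Pf4. The 4 of WT alone lay in Gp5 and near Itga2b, Gp1bb and Gp9.

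A wider list of 115 matched genes of the megakaryocyte and platelet system was examined at the start in the same way. A start peak was present for 65 in WT (56.5%), 61 in KO (53.0%) and 81 in KI (70.4%), beside 45.5%, 45.3% and 52.7% of all genes, the shares against which the counts of its 6 sublists also stand. Of the 115, 9 had one in WT and none in KO (7.83%, beside 4.7% of all genes) and 5 the reverse (4.35%, beside 4.56%). For KI these numbers were 2 (1.74%, beside 1.33%) and 18 (15.7%, beside 8.56%). At equal list size the KI numbers became 5 and 9.

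Of 20 transcription factors of this lineage, 12 had a start peak in WT, 10 in KO and 15 in KI. Runx1 had one in WT (score 95.69, percentile 50.7) and KI (135.06, 67.2) and none in KO, as did the homeobox gene Meis1 (68.36, 27.4 in WT and 84.0, 43.9 in KI). Mafg, a small Maf protein that pairs with p45 to form NF-E2, had one in KI alone (149.51, 70.9), and so had the ETS factor Erg (58.06, 14.5). Gabpa and the SRF coactivator Mrtfa had strong ones in every list, with percentiles of 87.3 or above.

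In thrombopoietin signalling, 10 of 12 genes had a start peak in WT, 9 in KO and 10 in KI. Stat5b had one in WT (84.74, 43.2) and KO (79.26, 43.2) and none in KI, and the phosphatase gene Inpp5d in KI alone (106.48, 56.7). The kinase gene Jak2 and the transcription factor gene Stat3 had one in all 3 lists.

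Of 24 surface receptors and adhesion molecules, 8 had a start peak in WT, 9 in KO and 13 in KI. P2rx1, an ATP-gated channel, lacked one in WT and had one in KO (113.16, 65.6) and KI (64.29, 24.1). Fcer1g, the signalling partner of glycoprotein VI, had one in KI alone (74.09, 35.4), as did the tetraspanin gene Cd9 (86.48, 45.6). F2rl2, a protease-activated receptor, had one in WT (79.9, 39.2) and KI (51.51, 2.68), while the thrombin receptor F2r and Itgb1 had one in all 3.

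Among 20 platelet signalling genes and eicosanoid enzymes, 13 had a start peak in WT, 12 in KO and 18 in KI. Fermt3, which encodes the integrin activator kindlin-3, had one in WT (50.73, 1.23) and KI (92.64, 49.6), and the G protein subunit Gng11 one at a gene end in WT (60.53, 17.1) and KI (91.79, 49.0). Prkcq had one in KO (120.93, 69.1) and KI (116.13, 60.8), and the kinase Btk in KI alone (81.82, 42.1). Pdpk1 and Gna13 had one in all 3.

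In the granule list, 12 of 24 genes had a start peak in WT, 12 in KO and 13 in KI. Hps1 had a start peak in KO (135.76, 74.1) and KI (173.64, 76.2), as did Vps33b, needed for alpha granules, at a gene end (78.55, 42.5 and 111.11, 58.8). Slc18a2, a monoamine transporter of dense granules, had one in WT (60.73, 17.5) and KI (140.49, 68.6), and Srgn, the granule proteoglycan serglycin, in WT alone (51.9, 3.19). Hps3 and Vipas39, the partner of Vps33b, had one in all 3.

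For 15 genes of the cytoskeleton and platelet production, 10 had a start peak in WT, 9 in KO and 12 in KI. Capzb, an actin-capping protein gene, had a strong one in WT (200.21, 84.2) and KI (292.55, 90.7) and none in KO. Was had one in KI alone (119.23, 61.9), as did the filamin gene Flna (54.51, 7.76). Kif1b and Rhoa had one in every list.

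**Figure D4:**
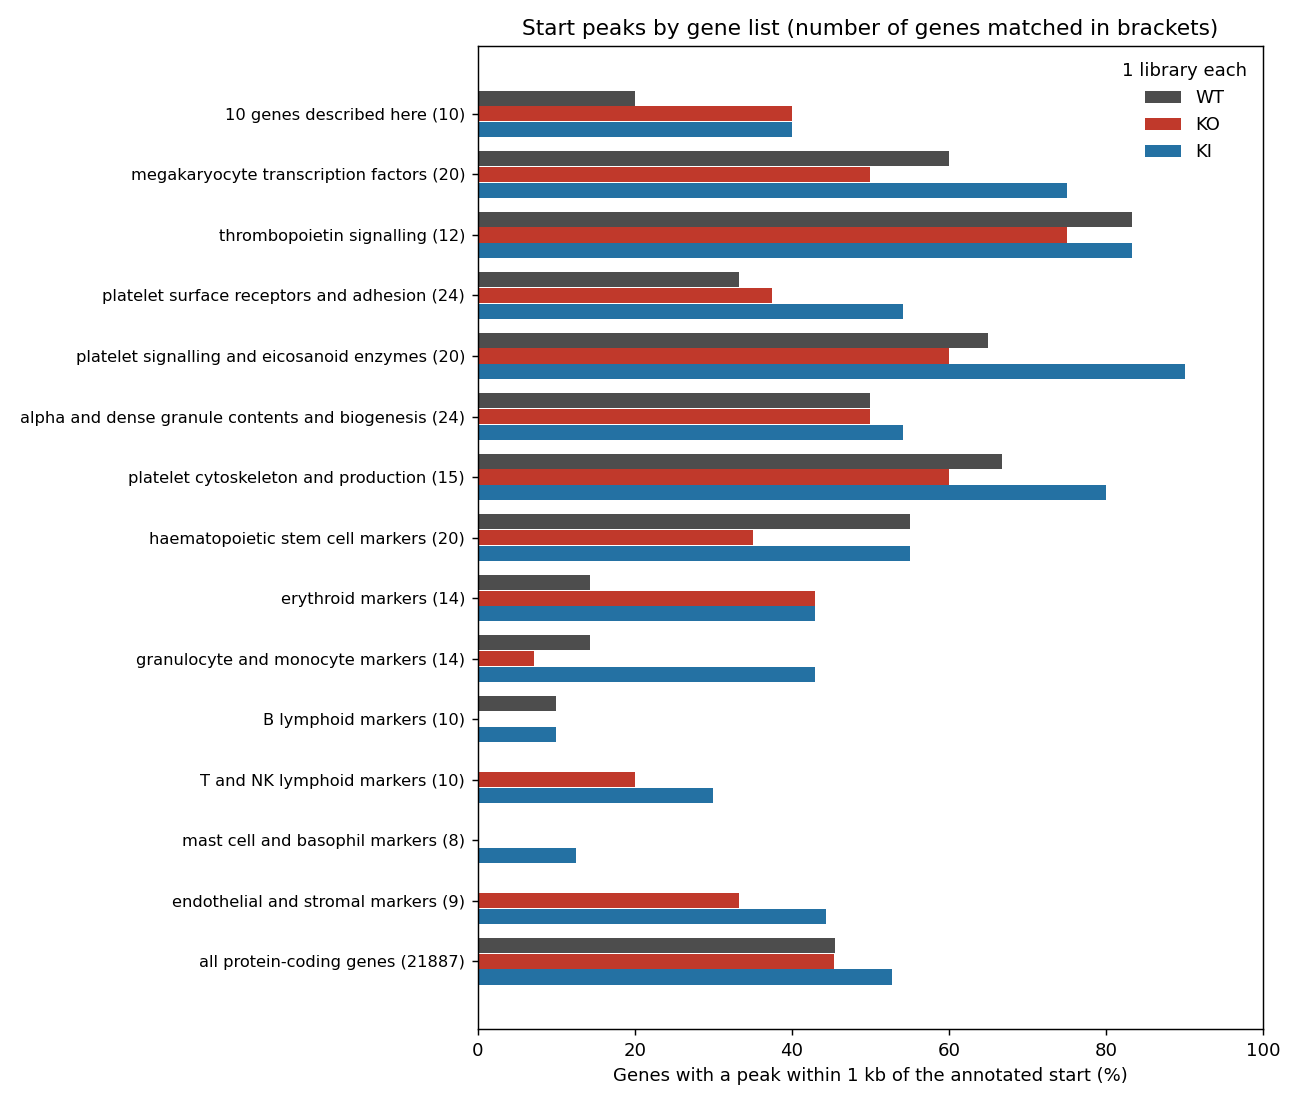
Percentage of genes with a peak within 1 kb of the annotated start (x axis) in each gene list (y axis), with 1 bar for each of the 3 libraries and no error since there are no replicates. The 10 genes stand at 20% in WT, 40% in KO and 40% in KI, beside 45.5%, 45.3% and 52.7% of all protein-coding genes.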

How the data were processed

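The members and gene lists were chosen with earlier results of these data known. Each of the 3 ATAC-seq libraries (50000 sorted cells, transposed for 30 min at 37 °C, per the labels' protocols) has 1 deposited peak list of 5 columns without a header. The last column holds a score per peak, as deposited. Peak names have the form MACS gives, and the score is read here as −log10 of a p-value times 10, which no source states. The submitters' processing notes name mm10 as build and CASAVA as tool. Not given in the sources used here: aligner, read shift, duplicate handling and any control. Lists were called per library and read depth is unknown.

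Peaks overlapping a gene body or 50 kb either side by at least 1 bp were taken, with Python 3.11.15 and pandas 2.3.3. Starts came from the RefSeq promoter table of GRCm38.p6 for 17492 of 21887 genes, and both annotated ends served for the other 4395. The annotation gives no exons. All members are described. In each of 6 further lists, up to 4 genes differing from WT at the start were named, by score, and up to 2 with a start peak in all lists; 1 gene so chosen is not reported here. In those lists 115 of 116 genes matched, 1 by an older symbol. Interval steps were tested on simulated data. Wilson intervals (SciPy 1.17.1) cover counting error only. The alternatives varied the window, the start distance, the score minimum, the overlap and the list size.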

Additional observations from a re-analysis of the deposited data

How the results depend on the processing

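With 1 library per genotype, depth unknown and scores comparable only within a list, presence or absence of a peak rests on the calling threshold. No paired analysis was possible because no comparison had replicates. Peaks near the members numbered 13 in WT, 11 in KO and 20 in KI with a window of 10 kb, and 47, 51 and 74 with 100 kb. With scores of at least 100 they numbered 10, 8 and 19, and at equal list size KI had 24. With scores of at least 100, regions in all 3 lists fell to 6, those of KI alone to 8, those of KO and KI to 1, those of KO alone to 1 and those of WT alone to 0. At equal list size there were 9 regions of WT alone, 5 of KI alone, 3 of KO and KI, 1 of WT and KO and 0 of WT and KI. Members with a start peak numbered 1 in WT, 1 in KO and 3 in KI with scores of at least 100. Within 2500 bp they numbered 5 in WT, 4 in KO and 6 in KI, so that WT stood above KO. In the wider list, 5 genes had a start peak in WT and none in KI at equal list size, and 9 the reverse.

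Chosen after seeing the data, the use of both annotated ends for every gene gave 4 members in WT, 3 in KO and 5 in KI, again with WT above KO, and 0 wider-list genes with a peak in WT and none in KI. At equal list size KI lacked 10 of the WT peaks near the members and WT lacked 9 of the KI peaks. Each alternative changes how many peaks enter a count. The other 52 of 81 values stayed within 1.5 times, among them all counts of shared peaks under both other overlap rules. Of 150 start calls of single members under these alternatives, 135 were the same. Many of these could not differ, since a higher score minimum, a shorter list or a shorter start distance can only remove a start peak. For Itgb3, Vwf and Nfe2, both annotated ends were already used, so that alternative repeats the main call. The 135 therefore do not measure stability. Nfe2 in all 3 lists and Gp1ba in KI alone held under each alternative that could have changed them.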
